A study of Homo sapiens with 12 samples.

Results

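The genes described here are 10 of the 58174 in each deposited table: the cytokines IL6 and LIF, the receptor chains IL6ST, LIFR and OSMR, the transcription factor STAT3, its inhibitor SOCS3, and the CCAAT/enhancer-binding factors CEBPB, CEBPD and CEBPG. They were matched by gene symbol, and all 10 were among the 14232 genes that passed the filter on low counts. They were chosen for their levels with XRN2 siRNA against control siRNA and against mock in each line, so those values are given as a description, with no test. The RNA came from a pair of established glioblastoma lines of human origin, LN229 and U251, which were grown in media that differ in base and serum share. The groups with XRN2 siRNA (labelled siXRN2), with control siRNA (siNT) and with transfection without siRNA (mock) were reverse transfected and harvested after 72 hours, with 2 libraries a group and 12 in all. XRN2 encodes a nuclear exoribonuclease that acts in transcription termination.

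Cytokines of the IL6 family bind receptor complexes that share the signal-transducing chain IL6ST, also called gp130. Janus kinases on these receptors phosphorylate STAT3, which then enters the nucleus, and SOCS3, itself induced by STAT3, inhibits the receptor complex. CEBPB and CEBPD are leucine-zipper transcription factors known to act at cytokine and acute-phase genes, and STAT3 and CEBPB are known as regulators of the mesenchymal expression state of glioblastoma.

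Libraries held 4846768 to 7469052 exon reads. Levels below are in CPM, exon read counts scaled to the size of the library with TMM factors (a trimmed mean of log ratios between libraries), and a count of 0 allows up to 3 reads, or 0.380 to 0.604 CPM; these limits cover counting error only. XRN2 was at 33.5 and 25.5 CPM with siXRN2 in LN229, against 201 to 242 CPM in the 4 control libraries, and at 31.0 and 26.1 CPM in U251, against 134 to 144 CPM. In 2 libraries the values stood apart from the replicate. LN229 siNT replicate 1 had the lowest share of intron reads, 5.58% of gene reads against 7.60% to 9.55% in the other libraries. U251 mock replicate 2 summed to 23095 CPM over 10 endoplasmic reticulum stress markers, against 1210 to 1897 CPM in the other libraries. Of the marker genes of other cell types, AIF1 and CD163 of macrophages and MS4A1 of B cells had no read in any library. Microglia and macrophage markers (10 genes) summed to 4.72 to 13.3 CPM in LN229 and 50.1 to 71.99 CPM in U251, and endothelial markers (5 genes) to 3.42 to 9.10 CPM in LN229 and 13.8 to 21.4 CPM in U251. In mock, 1 of 3 macrophage markers past the low-count filter was higher in LN229 and 2 were lower. Of 4 such endothelial markers, 2 were higher and 2 lower by the sign of the difference. The test between the lines described below called 1 of them higher and 2 lower, beside 28.0% and 26.9% of all tested genes. Between 4 and 6 of the 10 macrophage markers had no read in each U251 group, and 3 or 4 in each LN229 group. What part these markers have in the differences between the lines was not tested. Glial and neural stem markers had reads in both lines, but not all of them. Of 8 genes, 1 had no read in the siXRN2 libraries of U251, and 1 had none in its siNT libraries. GFAP was at 1.05 to 4.31 CPM in LN229 and at 2348 to 6893 CPM in U251. The labels do not say whether replicates were separate cultures, so a p-value covers the spread between libraries alone, which may be technical. In such bulk RNA, fewer cells that express a gene and less RNA per cell cannot be told apart.

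**Figure D1:**
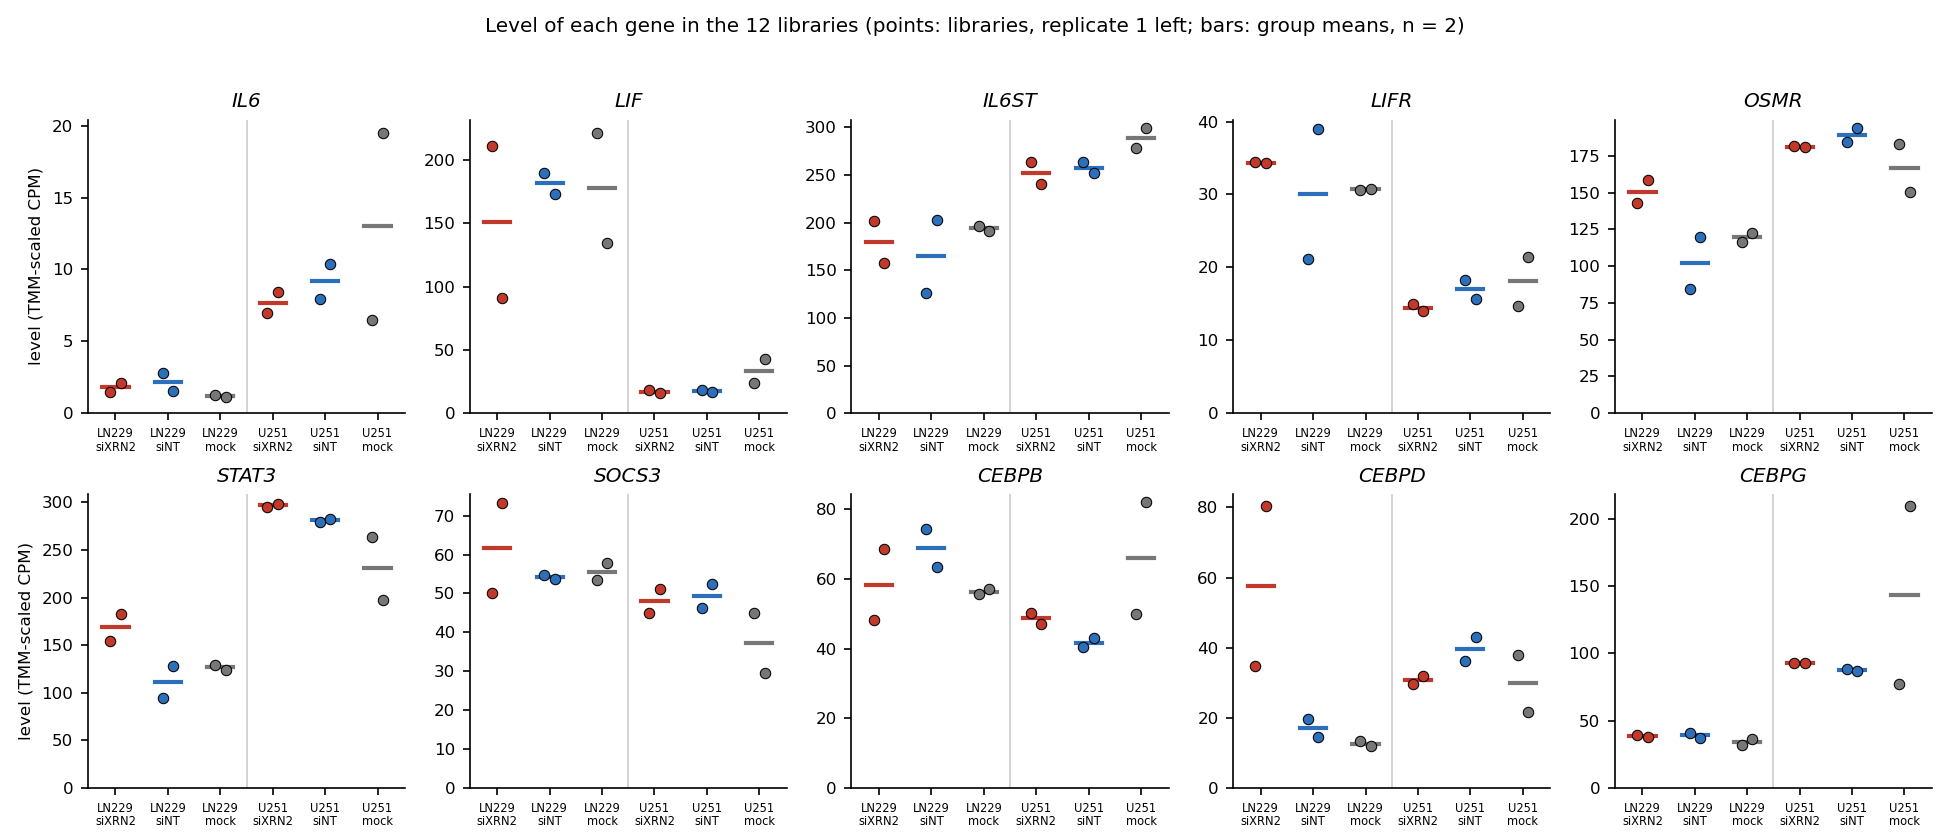
Level of each of the 10 genes in the 12 libraries (y axis, TMM-scaled CPM, from 0; x axis, group). Points are libraries, with replicate 1 on the left, and bars are means of 2; LIF reaches 222 CPM in LN229 and 42.6 CPM in U251, while CEBPG and IL6 have 1 high point in U251 mock.

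IL6, the founding cytokine of the family, was close to the detection limit in LN229, with 1.49 and 2.10 CPM with siXRN2, 2.82 and 1.51 CPM with siNT and 1.28 and 1.14 CPM in mock. In U251 it was at 6.97 and 8.43 CPM with siXRN2, 7.95 and 10.4 CPM with siNT and 6.49 and 19.5 CPM in mock. Each LN229 value was below each U251 value, and 8 to 14 reads stood behind each of the LN229 values. The mock libraries of U251 differed from each other more than any other pair for this gene, by 1.59 on the log2 scale. IL6 (ENSG00000136244; GRCh38 chromosome 7, 22725884 to 22732002, plus strand) is overlapped by AC073072.1, an antisense gene that was given at most 11 reads in a library, or up to 32.4% of the IL6 count, and the library kit does not keep strand.

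The promoter windows of IL6 and CEBPG are shown because these genes had the widest gaps between the U251 mock libraries. RefSeq windows of 300 bases (250 before and 50 after an annotated start, build GRCh38.p14) were found for 8 of the 10 genes, 13 windows in all. Capitals mark a CEBP motif (TTGCNNAA, both strands) in the IL6 window, and a composite motif of CEBP and ATF factors (TTGCATCA, both strands, here as its reverse complement TGATGCAA) in the CEBPG window. The IL6 window is chr7:22726950-22727249 and the CEBPG window chr19:33373863-33374162, both on the plus strand and both inside the interval the files give for the gene.
IL6: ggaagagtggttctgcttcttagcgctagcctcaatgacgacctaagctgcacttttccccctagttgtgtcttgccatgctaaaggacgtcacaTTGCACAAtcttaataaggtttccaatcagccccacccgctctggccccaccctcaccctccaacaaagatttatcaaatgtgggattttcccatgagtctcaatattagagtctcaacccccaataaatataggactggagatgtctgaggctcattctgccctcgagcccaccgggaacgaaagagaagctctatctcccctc
CEBPG: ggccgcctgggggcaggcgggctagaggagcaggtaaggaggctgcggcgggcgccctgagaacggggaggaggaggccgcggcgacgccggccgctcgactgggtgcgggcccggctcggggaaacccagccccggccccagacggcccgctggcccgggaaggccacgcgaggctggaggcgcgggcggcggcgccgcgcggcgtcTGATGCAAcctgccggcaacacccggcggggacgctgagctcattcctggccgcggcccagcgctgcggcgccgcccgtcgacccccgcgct
The IL6 match TTGCACAA begins 155 bases before the annotated start, and the CEBPG match 42 bases before it. Among all 35116 windows of this length, 10.46% held the CEBP motif and 0.87% the composite motif. The CEBPG window is 1 of 2 for that gene, and the other holds no match to these motifs. The CEBP motif was also in 1 of 3 LIFR windows and in the OSMR window, in both as TTGCAAAA. A STAT motif (TTCNNNGAA, its own reverse complement) was in 7.66% of all windows and in 2 of 3 LIFR windows, 1 of which also held the CEBP motif. A match describes these letters only, and nothing was measured at these positions.

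LIF, which signals through LIFR and IL6ST, was abundant in LN229, with 211 and 90.6 CPM with siXRN2, 190 and 173 CPM with siNT and 222 and 134 CPM in mock. In U251 it was at 18.4 and 15.8 CPM with siXRN2, 18.4 and 16.9 CPM with siNT and 24.0 and 42.6 CPM in mock. Every LN229 library was above every U251 library, and within LN229 the 3 groups overlapped. Both U251 mock libraries were above the siXRN2 and siNT libraries of that line. LIF (ENSG00000128342; chromosome 22, 30240447 to 30246851, minus strand) stood first of the 10 genes per exon length in LN229 mock, with 52.7 and 32.0 RPKM (the deposited count per exon length and sequencing depth), and in the eighth place in U251 mock, with 5.15 and 9.12 RPKM.

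IL6ST, the shared receptor chain, had 202 and 158 CPM with siXRN2, 126 and 203 CPM with siNT and 196 and 192 CPM in mock in LN229. In U251 it had 263 and 241 CPM with siXRN2, 264 and 252 CPM with siNT and 278 and 300 CPM in mock. All U251 values were above all LN229 values, and no treatment of LN229 was set apart from the others. IL6ST (ENSG00000134352; chromosome 5, 55935095 to 55994993, minus strand) was the one gene of the 10 for which most exon reads were not uniquely mapped. Unique reads made up 27.2% to 33.3% of its exon reads in 11 libraries, and 7.19% (45 of 626 reads; 95% Wilson interval 5.42% to 9.48%) in LN229 siNT replicate 1. Reads across an exon-exon junction showed the same library apart, with 35 in LN229 siNT replicate 1 and 292 in replicate 2, or 5.59% and 24.2% of exon reads. Counted by unique reads only, IL6ST was at 10.8 and 71.0 CPM with siNT in LN229, so that the replicates were further apart than by total exon reads. Its processed pseudogene IL6STP1 was listed with 0 reads in all 12 libraries, and how reads with several matches were assigned is not given in the sources used here.

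**Figure D2:**
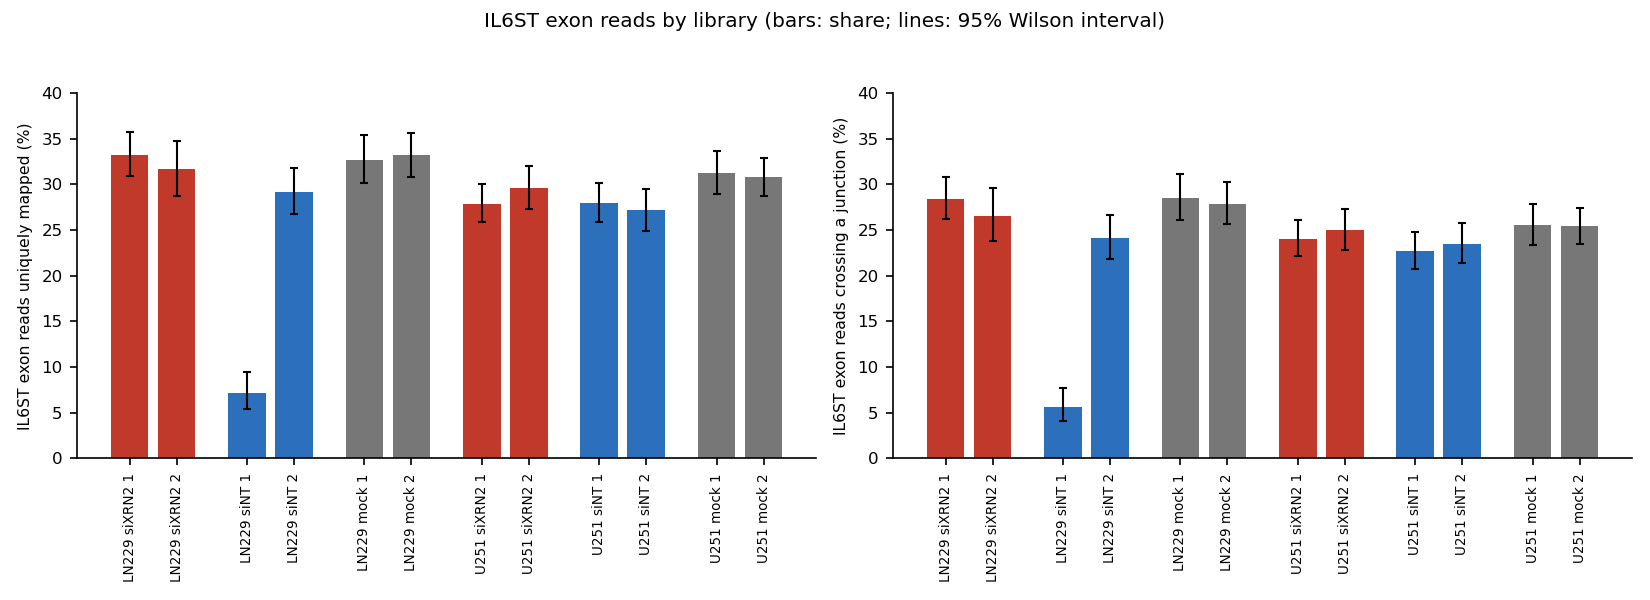
Share of IL6ST exon reads that were uniquely mapped (left) or crossed an exon-exon junction (right) in each library, in percent of IL6ST exon reads from 0, with 95% Wilson intervals that cover counting error only. LN229 siNT replicate 1 is at 7.19% and 5.59%, and the other 11 libraries are at 27.2% to 33.3% and 22.7% to 28.6%.

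LIFR, the receptor chain that binds LIF, had 34.4 and 34.3 CPM with siXRN2, 21.1 and 39.0 CPM with siNT and 30.7 and 30.8 CPM in mock in LN229. U251 cells had 14.99 and 13.99 CPM with siXRN2, 18.3 and 15.7 CPM with siNT and 14.7 and 21.4 CPM in mock. The siXRN2 pair and the mock pair of LN229 each agreed to within 0.2 CPM, while LN229 siNT replicate 1 was low enough to fall just below the higher U251 mock library. LIFR (ENSG00000113594; chromosome 5, 38474963 to 38608354, minus strand) had the lowest deposited RPKM of the receptor chains, 1.01 to 3.10, and LIFR-AS1 on its other strand was given 2 to 15 reads a library.

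OSMR, the receptor chain for oncostatin M, had 143 and 159 CPM with siXRN2 in LN229, against 84.6 and 120 CPM with siNT and 117 and 123 CPM in mock. The U251 values were 181 and 181 CPM with siXRN2, 184 and 194 CPM with siNT and 183 and 151 CPM in mock. Both LN229 siXRN2 libraries were above all 4 LN229 controls, and the LN229 siNT and mock groups overlapped. In U251 the siXRN2 libraries lay between the mock libraries and below both siNT libraries. The intron reads of OSMR (ENSG00000145623; chromosome 5, 38845858 to 38945596, plus strand) were at 13.5 and 14.3 RPM of all gene reads with siXRN2 in LN229, against 4.87 and 12.7 with siNT and 14.7 and 11.6 in mock, so those groups overlapped. RICTOR lies on the opposite strand across its end and was given 108 to 353 exon reads a library. The share of OSMR exon reads across junctions was 23.8% in LN229 siNT replicate 1 and 42.3% to 48.1% in the other libraries. Over all genes that share was 46.0% in LN229 siNT replicate 1 and 48.5% to 50.6% in the others.

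STAT3, the factor these receptors activate, had 154 and 183 CPM with siXRN2 in LN229, against 94.7 and 128 CPM with siNT and 129 and 124 CPM in mock. In U251, STAT3 was at 296 and 298 CPM with siXRN2, 279 and 283 CPM with siNT and 264 and 198 CPM in mock. In both lines the siXRN2 libraries were above all 4 control libraries, with a narrower margin over siNT in U251 than in LN229. STAT3 (ENSG00000168610; chromosome 17, 42313324 to 42388568, minus strand) stood first of the 10 genes by mean RPKM in all 3 groups of U251, at 38.9 and 39.4 RPKM with siXRN2, 36.7 and 36.9 RPKM with siNT and 34.6 and 25.9 RPKM in mock. All of its exon reads were unique, and the share across junctions was 38.1% in LN229 siNT replicate 1 and 50.9% to 57.4% in the other 11 libraries.

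SOCS3, the feedback inhibitor, had 50.1 and 73.3 CPM with siXRN2, 54.8 and 53.6 CPM with siNT and 53.4 and 57.8 CPM in mock in LN229. In U251 it had 45.1 and 51.1 CPM with siXRN2, 46.3 and 52.4 CPM with siNT and 45.0 and 29.5 CPM in mock. The siXRN2 libraries of LN229 lay on either side of all 4 controls, with 1 below and 1 above, and the U251 groups with siXRN2 and siNT overlapped. SOCS3 (ENSG00000184557; chromosome 17, 78356778 to 78360077, minus strand) spanned a range of 29.5 to 73.3 CPM over the 12 libraries, while LIF spanned 15.8 to 222 CPM.

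CEBPB had 48.2 and 68.6 CPM with siXRN2, 74.3 and 63.6 CPM with siNT and 55.6 and 57.1 CPM in mock in LN229. In U251, CEBPB was at 50.2 and 47.2 CPM with siXRN2, 40.4 and 42.9 CPM with siNT and 50.01 and 82.2 CPM in mock. Against mock, siNT lay higher in LN229 and lower in U251, and U251 mock replicate 2 held the highest value of all 12 libraries. CEBPB (ENSG00000172216; chromosome 20, 50190734 to 50192689, plus strand) has no junction read, and 76.6% to 81.7% of its exon reads were unique. CEBPB-AS1, which overlaps its 5′ end on the other strand, was given at most 12 reads.

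CEBPD showed the largest difference between siXRN2 and control libraries among the 10 genes. In LN229 it had 34.8 and 80.3 CPM with siXRN2, against 19.5 and 14.5 CPM with siNT and 13.4 and 11.9 CPM in mock. In U251, CEBPD was at 29.7 and 32.0 CPM with siXRN2, 36.1 and 43.1 CPM with siNT and 38.0 and 21.6 CPM in mock. Both LN229 siXRN2 libraries were above all LN229 controls, but they differed from each other by 1.21 on the log2 scale, more than any other pair for this gene. In U251 both siXRN2 libraries were below both siNT libraries and between the mock libraries. CEBPD (ENSG00000221869; chromosome 8, 47736909 to 47739086, minus strand) was read from 84 to 459 exon reads a library, all unique and none across a junction.

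CEBPG, a short member of the family known to pair with other leucine-zipper factors such as ATF4, had 39.3 and 38.0 CPM with siXRN2, 40.7 and 37.2 CPM with siNT and 31.8 and 36.0 CPM in mock in LN229. In U251, CEBPG was at 92.6 and 92.9 CPM with siXRN2, 88.1 and 86.6 CPM with siNT and 77.5 and 209 CPM in mock. All U251 values were above all LN229 values, and the siXRN2 and siNT libraries of each line lay close together. The exception was U251 mock replicate 2, at 209 CPM, in which ATF4 was also high, with 415 CPM against 136 CPM in replicate 1, as was the stress factor DDIT3, with 403 CPM against 15.1 CPM. CEBPG (ENSG00000153879; chromosome 19, 33373330 to 33382686, plus strand) was the gene whose window is printed above with the composite motif.

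**Figure D3:**
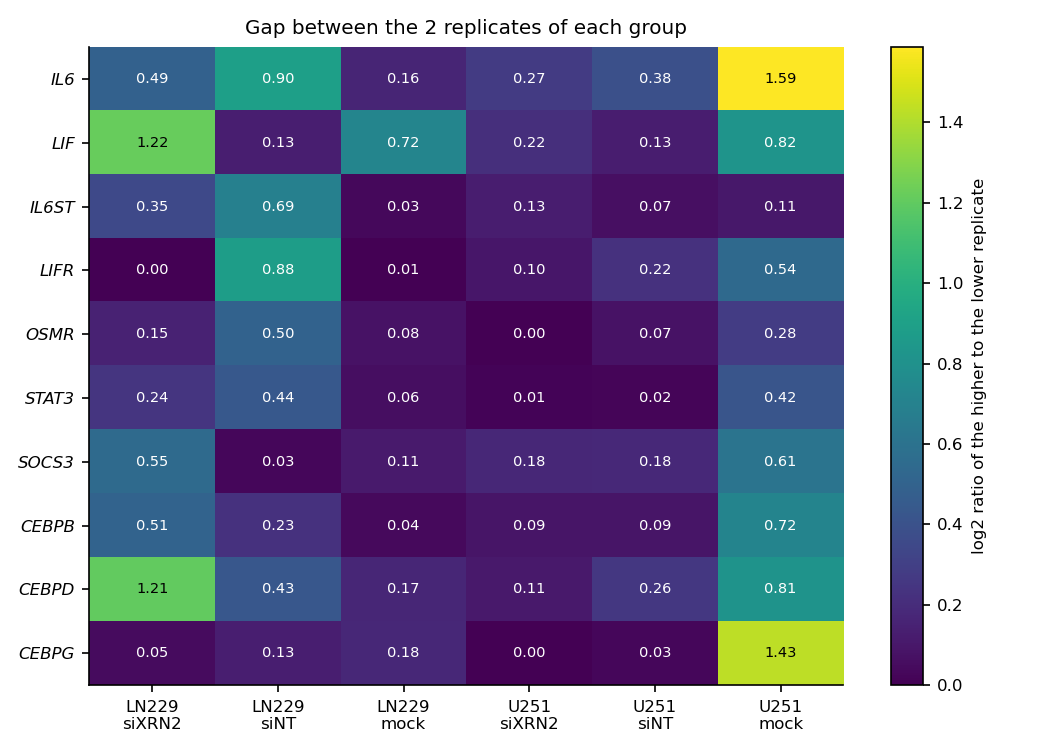
Gap between the 2 replicates of each group for each gene, as the log2 ratio of the higher to the lower CPM (colour and printed number). U251 mock holds the widest gaps for IL6 (1.59) and CEBPG (1.43), and LN229 siXRN2 those for LIF (1.22) and CEBPD (1.21).

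Replicates lay further apart in some groups than in others. Among all genes with a mean of at least 10 CPM in the group, the median gap between replicates was 0.31 on the log2 scale with siNT and 0.17 with siXRN2 in LN229 and 0.21 in U251 mock, against 0.09 to 0.11 in the other 3 groups. The receptor and STAT3 values were low in LN229 siNT replicate 1, with gaps of 0.88 for LIFR, 0.69 for IL6ST, 0.50 for OSMR and 0.44 for STAT3. IL6, CEBPD and CEBPB were higher in that library than in replicate 2, with gaps of 0.90, 0.43 and 0.23. SOCS3, LIF and CEBPG had gaps of 0.03, 0.13 and 0.13 in that pair. In U251 mock replicate 2, IL6, CEBPG, LIF, CEBPB, LIFR and IL6ST were above replicate 1, and CEBPD, SOCS3, STAT3 and OSMR were below it. In U251 with siXRN2 or siNT, the gaps of the 10 genes ran up to 0.38.

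The design asks first what XRN2 siRNA does in each line. In LN229, CEBPD averaged 57.6 ± 32.2 CPM with siXRN2, 17.0 ± 3.59 CPM with siNT and 12.7 ± 1.07 CPM in mock (SD, n = 2 each), a log2 fold change of 1.76 (SE 0.37) against siNT and of 2.18 (SE 0.37) against mock. Left out in turn, the siXRN2 replicates decided the size of that difference: it was 1.04 against siNT and 1.46 against mock without replicate 2, and 2.24 and 2.66 without replicate 1. STAT3 averaged 169 ± 20.1 CPM with siXRN2, 111 ± 23.7 CPM with siNT and 127 ± 3.56 CPM in mock, a log2 fold change of 0.60 (SE 0.18) against siNT and 0.41 (SE 0.17) against mock. OSMR averaged 151 ± 11.1 CPM with siXRN2, 102 ± 24.7 CPM with siNT and 120 ± 4.44 CPM in mock, with 0.56 (SE 0.17) against siNT and 0.33 (SE 0.17) against mock. Without LN229 siNT replicate 1, the values against siNT were 2.01 for CEBPD, 0.43 for STAT3 and 0.36 for OSMR. Marker sums differed between the same groups. Glial and neural stem markers (8 genes) summed to 3218 and 4120 CPM with siXRN2, against 4919 to 6259 CPM with siNT and 4826 to 4944 CPM in mock, and 6 of 8 were below 0 against each control, with medians of -0.25 and -0.35. Microglia and macrophage markers summed to 4.72 and 7.31 CPM with siXRN2, against 13.1 to 13.3 CPM with siNT and 10.8 to 11.7 CPM in mock, with AIF1 and CD163 at 0. Endothelial markers summed to 7.86 and 9.10 CPM with siXRN2, against 3.42 to 4.20 CPM with siNT and 3.93 to 4.31 CPM in mock. The 10 stress markers summed to 1210 and 1394 CPM with siXRN2, against 1604 to 1763 CPM with siNT and 1399 to 1582 CPM in mock. What part these have in the values of CEBPD, STAT3 and OSMR was not tested.

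The remaining 7 genes had no set of LN229 siXRN2 libraries apart from all controls. Their log2 fold changes in LN229 ran from -0.26 for IL6 and LIF to 0.18 for LIFR and SOCS3 against siNT, and from -0.23 for LIF to 0.55 for IL6 against mock. Most of these signs rested on single libraries. With a library left out in turn, the values against siNT ran from -1.01 to 0.22 for LIF, from -0.67 to 0.25 for IL6, from -0.15 to 0.70 for LIFR, from -0.11 to 0.43 for SOCS3, from -0.15 to 0.51 for IL6ST and from -0.077 to 0.087 for CEBPG. CEBPB kept its sign against siNT, at -0.51 to -0.012. Against mock, LIF ran from -0.98 to 0.25, SOCS3 from -0.15 to 0.39, CEBPB from -0.22 to 0.28 and IL6ST from -0.30 to 0.056, while IL6, LIFR and CEBPG kept their sign. The lowest LIF values were those without LN229 siXRN2 replicate 1, and IL6 turned to 0.25 against siNT without LN229 siNT replicate 1. In all, 3 of 10 genes (CEBPD, STAT3 and OSMR) had both LN229 siXRN2 libraries above all siNT and mock libraries, and 0 of 10 below. Among all tested genes, 15.9% lay above and 16.9% below in this way. The median log2 fold change of the 10 genes was 0.15 against siNT and 0.17 against mock, beside -0.00078 and -0.0041 for all genes. Since the genes were chosen on these values, the counts are given for completeness only.

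In U251, the log2 fold changes of the 10 genes against siNT ran from -0.36 (SE 0.35) for CEBPD to 0.23 (SE 0.22) for CEBPB. Against mock they ran from -0.96 (SE 0.44) for LIF to 0.37 (SE 0.21) for SOCS3, with -0.77 (SE 0.40) for IL6 and -0.63 (SE 0.32) for CEBPG. The values against mock moved with U251 mock replicate 2: without it, IL6 was at 0.24 and CEBPG at 0.26, both with the opposite sign, and LIF at -0.49. STAT3 averaged 297 ± 1.89 CPM with siXRN2, 281 ± 2.71 CPM with siNT and 231 ± 46.8 CPM in mock, with 0.08 (SE 0.17) against siNT and 0.36 (SE 0.17) against mock. Against mock this was 0.17 without U251 mock replicate 2 and 0.59 without U251 mock replicate 1. It was the 1 gene of 10 whose U251 siXRN2 libraries were above all controls, beside 13.8% of all tested genes, and 0 of 10 lay below, beside 10.6%. The comparisons with siNT and with mock share their siXRN2 libraries, so they are not separate observations.

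**Figure D4:**
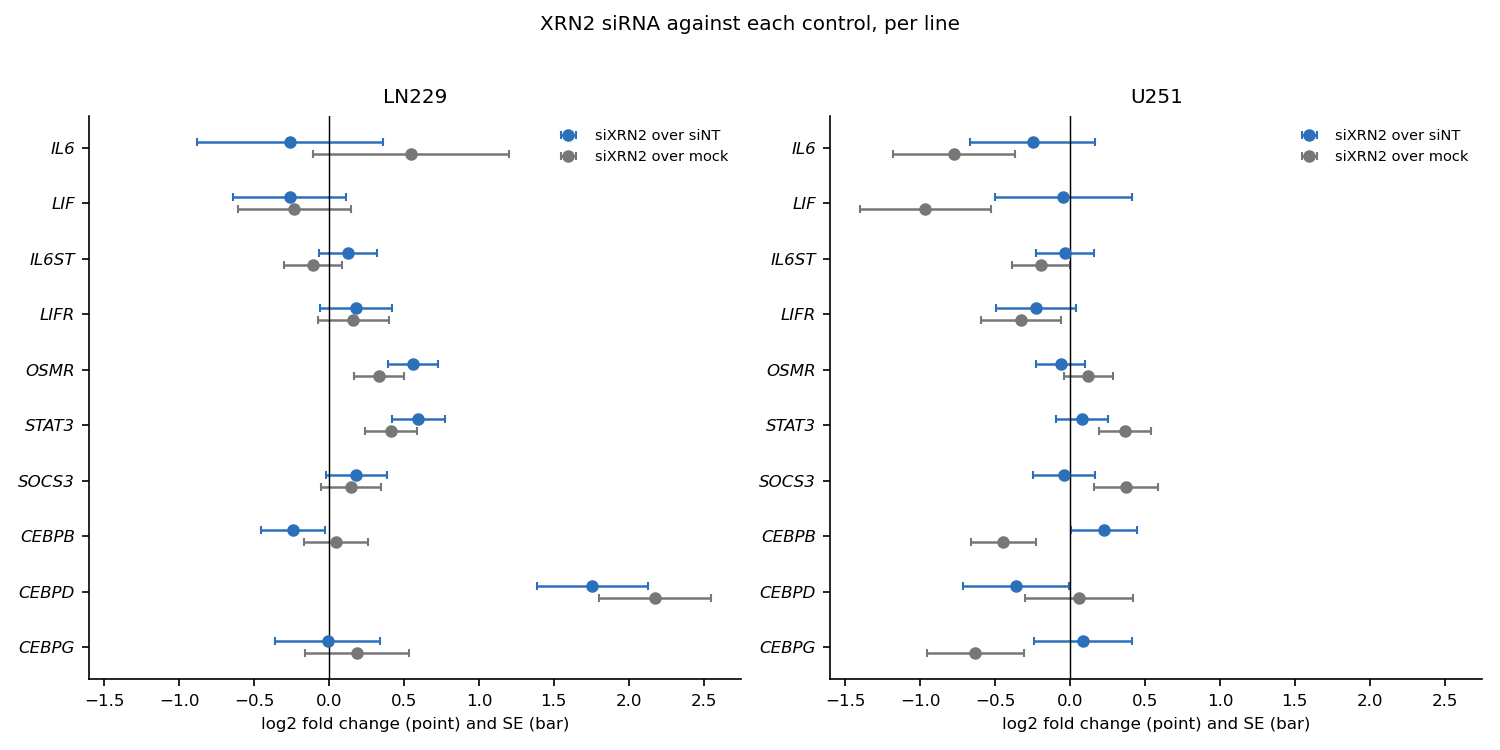
Log2 fold change of each gene for siXRN2 over siNT (blue) and over mock (grey), in LN229 (left) and U251 (right); points are edgeR estimates and bars 1 SE. In LN229 CEBPD is at 1.76 and 2.18, apart from the other genes, and in U251 LIF has the lowest value, -0.96 against mock.

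The siNT libraries test whether transfection with an siRNA of itself moved these genes. By edgeR's quasi-likelihood test with Benjamini-Hochberg adjustment at 0.05, 0 of 10 genes passed between siNT and mock in either line, and 0 of all 14232 genes did (0.0%). At an unadjusted p under 0.05 there were 0 of 10 genes in LN229, beside 647 (4.55%) of all genes, and 1 of 10 in U251, beside 682 (4.79%). DESeq2 called 0 of the 10 genes in either line, and 1 of all genes in LN229 and 0 in U251. The gene with the unadjusted p under 0.05 was CEBPB in U251, at 41.7 ± 1.79 CPM with siNT and 66.1 ± 22.8 CPM in mock (SD, n = 2 each), a log2 fold change of -0.67 (SE 0.22, edgeR adjusted p = 0.973); in LN229 it was 0.29 (SE 0.21, edgeR adjusted p = 0.802). Without the filter on low counts, 3 of the 10 genes passed in U251, CEBPB at -0.68, CEBPG at -0.72 and LIF at -0.93, all lower with siNT, beside 1.05% of all genes in that fit. Without U251 mock replicate 1, CEBPB at -0.98 and CEBPG at -1.26 passed, beside 3.24% of all genes. In U251 mock replicate 2, which holds the highest values of these 3 genes in that line, the summed stress markers were at 23095 CPM, and their part in this difference was not tested. Without LN229 siNT replicate 2, OSMR at -0.50 and IL6ST at -0.62 passed in LN229, beside 13% of all genes, and the lone siNT library was then assumed to vary like the other groups.

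The lines differed in nearly all 10 genes before any knockdown. In mock, LIF, LIFR and SOCS3 were higher in LN229, and IL6, CEBPG, CEBPD, STAT3, IL6ST and OSMR were lower, 9 of 10 genes beside 54.9% of all tested genes (28.0% higher and 26.9% lower). With siNT, LIF, LIFR and CEBPB were higher in LN229 and IL6, STAT3, CEBPD, CEBPG, OSMR and IL6ST lower, again 9 of 10, beside 54.5% (28.4% higher and 26.1% lower). The median log2 fold change of LN229 over U251 was -0.53 in mock and -0.77 with siNT for the 10 genes, and 0.03 and 0.04 for all genes. The count depended on single libraries: 4 to 7 of the 10 genes passed in mock and 5 or 6 with siNT when a library was left out, beside 41.4% to 49.0% and 41.0% to 54.2% of all genes in the same fits, so these counts lie near the background.

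Among the ligands, the lines were opposite. LIF averaged 178 ± 61.6 CPM in LN229 mock and 33.3 ± 13.1 CPM in U251 mock (SD, n = 2 each), a log2 fold change of 2.41 (SE 0.41, edgeR adjusted p = 0.00074), or 5.31-fold. With siNT LIF was at 182 ± 11.8 CPM in LN229 and 17.7 ± 1.10 CPM in U251, which was 3.36 (SE 0.44, edgeR adjusted p = 0.000123), or 10.3-fold. IL6 averaged 1.21 ± 0.10 CPM in LN229 mock and 13 ± 9.21 CPM in U251 mock, a log2 fold change of -3.43 (SE 0.51, edgeR adjusted p = 9.48e-05). With siNT IL6 was at 2.17 ± 0.92 CPM in LN229 and 9.17 ± 1.72 CPM in U251, at -2.09 (SE 0.50, edgeR adjusted p = 0.00338). LIF, IL6 and STAT3 were the genes that kept their call between the lines in mock and with siNT under every alternative run. Without U251 mock replicate 2 the IL6 difference in mock was -2.42.

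The receptor chains differed less. LIFR was at 30.7 ± 0.08 CPM in LN229 mock and 18.1 ± 4.77 CPM in U251 mock, a log2 fold change of 0.76 (SE 0.25, edgeR adjusted p = 0.0205), and at 0.83 (SE 0.25, edgeR adjusted p = 0.0139) with siNT. OSMR was at -0.48 (SE 0.17, edgeR adjusted p = 0.0268) in mock and at -0.89 (SE 0.17, edgeR adjusted p = 0.000606) with siNT, and IL6ST at -0.57 (SE 0.19, edgeR adjusted p = 0.0231) and -0.64 (SE 0.20, edgeR adjusted p = 0.0134). In mock, each of the 3 calls was lost without LN229 mock replicate 1 and without LN229 mock replicate 2; those of LIFR (0.52) and OSMR (-0.33) were also lost without U251 mock replicate 1, and that of IL6ST (-0.52) without U251 mock replicate 2. With siNT, the call of OSMR was kept in each such fit, that of LIFR was lost without LN229 siNT replicate 2 (0.32) and without U251 siNT replicate 2 (0.72), and that of IL6ST without LN229 siNT replicate 1 (-0.36) and without U251 siNT replicate 1 (-0.61). Fitted on the compared groups alone, LIFR at 0.84 (edgeR adjusted p = 0.0622) and IL6ST at -0.64 (edgeR adjusted p = 0.0727) did not pass with siNT. Without TMM factors, which moved the median of all genes to 0.21 in mock and 0.19 with siNT, OSMR at -0.30 and IL6ST at -0.39 no longer passed in mock. On unique reads IL6ST did not pass, at -0.48 (edgeR adjusted p = 0.488) in mock and -1.01 (edgeR adjusted p = 0.169) with siNT.

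STAT3 averaged 127 ± 3.56 CPM in LN229 mock and 231 ± 46.8 CPM in U251 mock, a log2 fold change of -0.87 (SE 0.18, edgeR adjusted p = 0.00102). With siNT it was at 111 ± 23.7 CPM in LN229 and 281 ± 2.71 CPM in U251, at -1.33 (SE 0.18, edgeR adjusted p = 3.51e-05). SOCS3 went the other way in mock, with 55.6 ± 3.12 CPM in LN229 and 37.3 ± 10.99 CPM in U251, a log2 fold change of 0.58 (SE 0.21, edgeR adjusted p = 0.0303). With siNT, SOCS3 was at 54.2 ± 0.80 CPM in LN229 and 49.4 ± 4.35 CPM in U251, which did not pass at 0.14 (SE 0.21, edgeR adjusted p = 0.601). The SOCS3 call in mock was also lost without LN229 mock replicate 1 (0.64), without LN229 mock replicate 2 (0.52) and without U251 mock replicate 2 (0.30), the library with the lowest SOCS3 level, and on the compared groups alone (0.56, edgeR adjusted p = 0.0549).

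Of the CEBP factors, CEBPG was lower in LN229, at -2.08 (SE 0.34, edgeR adjusted p = 0.000406) in mock and -1.17 (SE 0.34, edgeR adjusted p = 0.0139) with siNT. The difference in mock was -1.19 without U251 mock replicate 2 and kept its call; that with siNT lost its call without LN229 siNT replicate 1 (-1.25), LN229 siNT replicate 2 (-1.10) or U251 siNT replicate 1 (-1.16). CEBPD was at -1.23 (SE 0.38, edgeR adjusted p = 0.0184) in mock and -1.23 (SE 0.38, edgeR adjusted p = 0.0168) with siNT, calls that were lost without LN229 mock replicate 1 (-1.32), LN229 mock replicate 2 (-1.14) or U251 mock replicate 1 (-0.78), and without LN229 siNT replicate 1 (-1.46), LN229 siNT replicate 2 (-1.02) or U251 siNT replicate 2 (-1.10). CEBPB did not pass in mock, at -0.23 (SE 0.21, edgeR adjusted p = 0.375), where its sign turned to 0.17 without U251 mock replicate 2, and it passed without U251 mock replicate 1 (-0.55, edgeR adjusted p = 0.0346). With siNT CEBPB was higher in LN229, at 0.73 (SE 0.22, edgeR adjusted p = 0.0131), a call lost without LN229 siNT replicate 1 (0.60), U251 siNT replicate 1 (0.68) or U251 siNT replicate 2 (0.77).

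**Figure D5:**
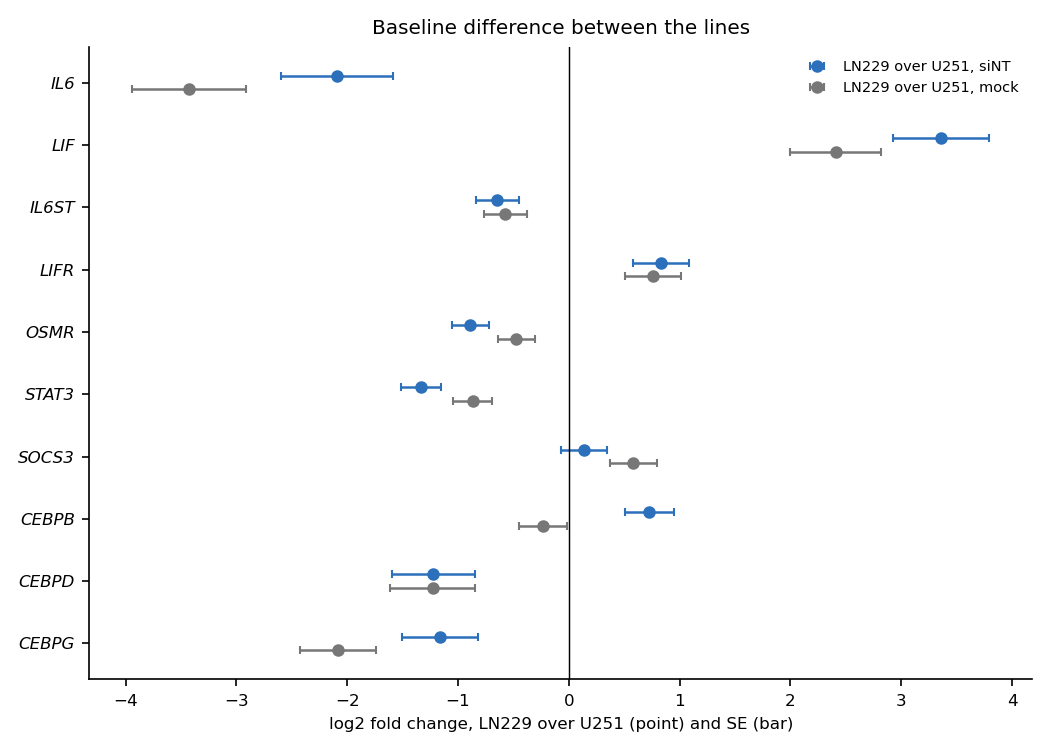
Log2 fold change of LN229 over U251 for each gene with siNT (blue) and in mock (grey); points are edgeR estimates and bars 1 SE. LIF is at 3.36 and 2.41 and IL6 at -2.09 and -3.43, on opposite sides of 0.

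Per exon length, by the mean RPKM of each group, the genes stood in different orders in the groups. In LN229 mock, the deposited RPKM placed LIF first (52.7 and 32.0), then CEBPB (26.8 and 27.6), IL6ST, SOCS3, STAT3, OSMR, CEBPG, CEBPD, LIFR and IL6, of which IL6ST, SOCS3 and STAT3 overlapped as neighbours. In U251 mock, STAT3 came first (34.6 and 25.9), then CEBPB (21.7 and 35.7), CEBPG (14.9 and 40.3), IL6ST, OSMR, CEBPD, SOCS3, LIF, IL6 and LIFR, of which the first 4 overlapped as neighbours, as did CEBPD with SOCS3 and LIF with IL6. In U251 with siNT, where replicates were closer, STAT3 again came first (36.7 and 36.9), then IL6ST (24.2 and 22.9), OSMR (21.9 and 22.9), CEBPB, CEBPG, CEBPD, SOCS3, LIF, IL6 and LIFR, and the neighbours from CEBPG to SOCS3 and LIF with IL6 overlapped. CEBPD was in the eighth place in LN229 with siNT and in mock and in the third place with siXRN2, where it was at 15.6 and 37.0 RPKM and overlapped with CEBPB above it and STAT3 below it.

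Within each line, the levels of the 10 genes were set side by side over the 12 libraries as log2 CPM centred on the mean of the line. These are descriptions over libraries that share groups, depth and the 2 libraries that stood apart. They include the siXRN2 libraries for whose levels the genes were chosen, so likeness among the 10 genes is no separate observation. The pairs named are a selection. STAT3 and OSMR had a Pearson correlation of 0.94, and SOCS3 and LIF one of -0.94; without LN229 siNT replicate 1 and U251 mock replicate 2 the values were 0.90 and -0.91. CEBPD and OSMR stood at 0.65 and, without these libraries, at 0.97. CEBPB and CEBPG stood at 0.80 and, without them, at -0.04. Of the 10376 genes with a mean of at least 10 CPM, those most like CEBPD were IFITM10 and PBXIP1 (both 0.94), those most like STAT3 were SYNJ2 and MSI2 (both 0.99), and that most like OSMR was KIAA0556 (0.97). The gene most like CEBPG was PPP1R15A (0.99, and 0.78 without the 2 libraries), that most like IL6ST was AHCTF1 (0.98), most like LIFR RB1CC1 (0.94, and 0.76 without the 2 libraries) and most like CEBPB AIMP1 (0.96). IL6 was most like PLEKHF1 (0.94, and 0.75 without the 2 libraries), LIF most like THAP9-AS1 (0.92) and SOCS3 most like NLGN2 (0.95).

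The other genes of the pathway were read from lists that leave out the 10 genes. Of 9 further ligand genes, 4 passed the filter on low counts and 0 passed edgeR's test between siXRN2 and either control in either line; IL11 was at 9.48 and 5.42 CPM with siXRN2, 14.5 and 12.1 CPM with siNT and 14.5 and 7.48 CPM in mock in LN229. Oncostatin M itself, the OSM gene, was at 0 in 9 of 12 libraries and at most 0.271 CPM. Of 5 further receptor genes, 4 were tested and 0 passed in these comparisons. IL6R, the chain that binds IL6, was at 29.4 and 71.7 CPM with siXRN2 in LN229, against 15.7 and 24.2 CPM with siNT and 18.9 and 23.6 CPM in mock, a log2 fold change of 1.32 (SE 0.39, edgeR adjusted p = 0.088) against siNT and 1.24 (SE 0.39, edgeR adjusted p = 0.141) against mock.

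In LN229, 450 of 14232 genes (3.16%) passed between siXRN2 and siNT and 183 (1.29%) between siXRN2 and mock. Of 8 tested Janus kinases and STATs other than STAT3, 0 passed against siNT and 1 against mock: STAT5B was at 27.2 and 27.3 CPM with siXRN2 and 44.7 and 47.4 CPM in mock, a log2 fold change of -0.76 (SE 0.15, edgeR adjusted p = 0.0312). That call was lost without LN229 mock replicate 1, LN229 mock replicate 2 or LN229 siXRN2 replicate 2, with values between -0.80 and -0.72. Of 13 tested brakes on the pathway, SOCS2 was higher against siNT, with 32.5 and 32.9 CPM with siXRN2 and 22.8 and 19.8 CPM with siNT, at 0.62 (SE 0.15, edgeR adjusted p = 0.0484), and 0 passed against mock. Of 8 tested CEBP and leucine-zipper partners, 0 passed against either control, with ATF4 at 370 and 323 CPM with siXRN2, 502 and 359 CPM with siNT and 377 and 374 CPM in mock.

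Of 20 tested genes listed as STAT3 targets, 1 was higher and 1 lower with siXRN2 against siNT in LN229, and 0 passed against mock. BCL6, a transcriptional repressor, was at 76.0 and 75.9 CPM with siXRN2 and 42.3 and 53.6 CPM with siNT, a log2 fold change of 0.66 (SE 0.16, edgeR adjusted p = 0.0487). BIRC5, which encodes survivin and also serves mitosis, was at 210 and 124 CPM with siXRN2 and 398 and 295 CPM with siNT, at -1.05 (SE 0.23, edgeR adjusted p = 0.0309). Of 20 tested mesenchymal regulators and markers, 0 were higher and 1 was lower against siNT: PLAUR, the urokinase receptor, was at 20.2 and 12.6 CPM with siXRN2 and 42.3 and 32.5 CPM with siNT, at -1.17 (SE 0.24, edgeR adjusted p = 0.0251). The calls of SOCS2, BCL6, BIRC5 and PLAUR were each lost without LN229 siNT replicate 1 (0.75, 0.53, -0.79 and -0.94) and without LN229 siXRN2 replicate 2 (0.61, 0.66, -0.72 and -0.88), and those of SOCS2 (0.62) and BCL6 (0.65) also without LN229 siXRN2 replicate 1. Fitted on the LN229 siXRN2 and siNT libraries alone, 4 genes in all passed against siNT, 2 higher and 2 lower. The medians against siNT were -0.13 for the target list and -0.05 for the mesenchymal list, beside -0.00078 for all genes. In U251, 1 gene in all (0.00703%) passed against siNT and 7 (0.0492%) against mock, and 0 genes of these lists were among them. These U251 counts rest on the spread pooled over all groups. Fitted on the U251 siXRN2 and siNT libraries alone, 497 genes in all (3.89%) passed against siNT, and on the siXRN2 and mock libraries alone 1 passed. Whether genes of these lists were among them is not given here.

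The other genes of the pathway were also set side by side between the lines. In mock, IL11 was at 14.5 and 7.48 CPM in LN229 and 39.9 and 77.2 CPM in U251, at -2.44 (SE 0.35, edgeR adjusted p = 9.73e-05), and CLCF1, another family cytokine, was also lower in LN229, at -1.58 (SE 0.24, edgeR adjusted p = 9.17e-05). IL6R was higher in LN229, with 18.9 and 23.6 CPM against 9.73 and 4.68 CPM in U251, at 1.58 (SE 0.46, edgeR adjusted p = 0.0123), but did not pass with siNT, with 15.7 and 24.2 CPM in LN229 and 10.8 and 8.27 CPM in U251, at 1.07 (SE 0.44, edgeR adjusted p = 0.0619). IL11RA, the receptor for IL11, was at 6.55 and 6.34 CPM in LN229 mock and had no read in U251 mock. Of 8 tested Janus kinases and STATs, 4 were higher and 3 lower in LN229 mock, with JAK1 among the lower at -0.67 (SE 0.18, edgeR adjusted p = 0.00596). CEBPA was lower in LN229, with 1.12 and 1.01 CPM against 12.98 and 8.87 CPM in U251 mock, at -3.33 (SE 0.34, edgeR adjusted p = 3.64e-06). Of 20 tested STAT3 targets, 7 were higher and 6 lower in LN229 mock, and of 20 mesenchymal genes 4 were higher and 11 lower, with medians of 0.22 and -0.96. Among all genes 28.0% were higher and 26.9% lower in this comparison, with a median of 0.03, so the counts of the STAT3 targets are near the background. With siNT, 2 of the 8 Janus kinases and STATs were higher in LN229 and 3 lower, beside 28.4% and 26.1% of all genes. Of the STAT3 targets 8 were then higher and 5 lower, and of the mesenchymal genes 3 were higher and 10 lower, with medians of 0.33 and -0.80.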

How the data were processed

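RNA of LN229 and U251 cells was sequenced in 12 libraries, 2 for each of 6 groups taken from the sample titles. Per the labels' protocols, total RNA was extracted with a column kit 72 hours after reverse transfection and libraries were made from 1 ug with an Illumina TruSeq RNA v2 kit, a poly(A) selection kit that does not mark strand. Per the file headers, the deposited tables (1 per library) give each gene's whole-number counts of exon reads (all, and those mapped uniquely), junction reads and intron reads. They also give RPKM, scaled by the authors to exon length and depth. GRCh37 and hg19 are named in the submitters' processing notes, but the positions of 56000 of 57836 gene identifiers (96.8%), and of all 10 genes described, equal those of GENCODE release 29, so the coordinates are GRCh38. How reads were aligned and counted, and how multiply mapped reads were assigned, is not given in the sources used here.

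Total exon read counts as deposited were filtered with filterByExpr (minimum count 10, minimum total 15; 14232 of 58174 genes kept) and scaled by TMM. A model with the 6 group means was fitted over the 12 libraries in edgeR 4.0.16 (R 4.3.3), with robust quasi-likelihood dispersions and 6 residual degrees of freedom; p-values of its F-test were adjusted over all genes by Benjamini-Hochberg, with a threshold of 0.05. The script was checked on simulated counts. Replicates differed by more than sampling noise in all 6 groups (chi-square per gene 1.73 to 27.2). RPKM was used to order genes within a group, by the mean of its 2 libraries, and shares have Wilson intervals. Promoter windows are those of RefSeq, and a motif was searched on both strands.

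The 10 genes, the gene lists and the tests were chosen with earlier results of these data known. Named from the lists, in each comparison, were up to 4 genes per list that passed, by smallest p, or the 2 most abundant where none passed; the text gives a selection, and OSM and DDIT3 were added after their values were seen. For each of the 10 genes the most correlated genes with a mean of at least 10 CPM were listed. Alternatives were DESeq2 1.42.0, its size factors, no TMM factors, no filter, a minimum of 5 CPM in 2 libraries, the replicate number as a block, unique exon reads, the compared groups alone, RPKM, and each library left out in turn; leaving out LN229 siNT replicate 1 and U251 mock replicate 2 together was added after seeing the data. For CEBPD and LIF no promoter window was printed.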

Additional observations from a re-analysis of the deposited data

Results flagged for a closer look

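For CEBPD and OSMR (siXRN2 against siNT) and for CEBPB (siNT against mock), both libraries of the first group lay above both of the second in LN229. In U251 they lay below both. The difference between the lines was not tested. These genes were picked out because of this order. With 2 libraries a group it can also arise by chance, and its share among all tested genes is not given. The genes described were chosen for their levels with siXRN2 against the controls, so the values of CEBPD and OSMR are a description only. CEBPD had both siXRN2 libraries above both siNT libraries in LN229, with a log2 fold change of 1.76, and both below in U251, with -0.36. OSMR had both siXRN2 libraries above siNT in LN229, with 0.56, and below in U251, with -0.06. Against mock in U251 this order did not hold. There the siXRN2 libraries of both genes lay between the mock libraries, with 0.06 for CEBPD and 0.12 for OSMR. CEBPB had both siNT libraries above mock in LN229, with 0.29, and below in U251, with -0.67. Against siNT, the U251 value of OSMR was smaller than its SE of 0.16, and that of CEBPD was about the size of its SE of 0.35.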

How the results depend on the processing

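Of the counts of genes called, those between the lines kept within 1.5 times of the main value under every alternative that kept all libraries, and so did the 9 of 10 genes described. DESeq2 called 1 gene between siNT and mock in LN229, 773 and 9 genes between siXRN2 and siNT in LN229 and U251, and 412 and 34 between siXRN2 and mock. Without the filter the counts were 70 and 247 between siNT and mock in LN229 and U251 (3 of the 10 genes in U251), 1550 and 69 for siXRN2 against siNT, and 1026 and 502 against mock. On the compared groups alone they were 4 and 497 against siNT and 103 and 1 against mock, and on unique reads 4 against siNT in U251. Without TMM factors the split of higher against lower genes was 277 against 197 for siXRN2 against siNT in LN229 (172 against 278 with TMM), 126 against 92 for siXRN2 against mock there (78 against 105), 5029 against 3060 between the lines in mock (3987 against 3833) and 4932 against 3069 with siNT (4042 against 3717). With a library left out, the counts ran from 6060 to 7194 between the lines in mock, 6017 to 7959 with siNT, 0 to 1913 and 0 to 475 between siNT and mock in LN229 and U251, 1 to 3296 and 1 to 1 for siXRN2 against siNT, and 1 to 657 and 1 to 768 against mock; of the 10 genes, 4 to 7, 5 to 6, 0 to 2 and 0 to 2 passed in the first 4 of these. Between the lines and between siNT and mock, log2 fold changes that turned sign were called neither in the main fit nor with the turned sign. CEBPG between siNT and mock in U251 was, however, called with its main sign without the filter, at -0.72. Others passed with their main sign when a library was left out, as given above. With a library left out, CEBPB between the lines in mock ran from -0.55 to 0.17; between siNT and mock in LN229 STAT3 ran from -0.42 to 0.015, SOCS3 from -0.093 to 0.02, LIF from -0.29 to 0.43, LIFR from -0.54 to 0.34 and IL6ST from -0.62 to 0.064, and in U251 CEBPG from -1.26 to 0.17, IL6 from -1.09 to 0.49 and LIFR from -0.34 to 0.21. With both LN229 siNT replicate 1 and U251 mock replicate 2 left out, these were 0.16 for CEBPB, 0.015 for STAT3, -0.037 for LIF, 0.34 for LIFR and 0.064 for IL6ST, and in U251 0.17 for CEBPG, 0.49 for IL6 and 0.21 for LIFR; LIF was at -0.002 without TMM factors. The cause was not tested. By mean level, 9 of the 10 genes changed rank between CPM and RPKM. With the replicate number as a block, 7728 and 7669 genes were called between the lines and 0 between siNT and mock in either line. In that fit 566 and 1 were called for siXRN2 against siNT and 231 and 5 against mock. The block changed no call among the 10 genes but ended those of SOCS2 and BCL6 (edgeR adjusted p = 0.0502 for both). The deviations of same-numbered libraries correlated between -0.07 and 0.10 over all tested genes. These values cannot tell whether a number marks a shared culture or day, since a small effect or one on few genes would not show in them. At these depths, IL6 in LN229 rests on 8 to 14 reads a library, and groups of 2 leave the spread to be estimated across all 6 groups.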

Other observations

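The endothelial marker VWF was at 3.66 and 4.55 CPM with siXRN2, 1.21 and 1.85 CPM with siNT and 1.28 and 2.03 CPM in mock in LN229, a log2 fold change of 1.39 (SE 0.43, edgeR adjusted p = 0.0899) against siNT that did not pass. The intermediate filament gene VIM was at 2468 and 1867 CPM with siXRN2 in LN229, 4166 and 3070 CPM with siNT and 3169 and 3059 CPM in mock, at -0.74 (SE 0.21, edgeR adjusted p = 0.0669) against siNT, which did not pass. CEBPA was at 0.135 and 0.350 CPM with siXRN2 in LN229, under the limit that a count of 0 allows, and at 17.8 and 17.7 CPM with siXRN2 in U251.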
